A study of Mus musculus with 13 samples.

Results

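The 10 genes described here encode the adherens junction of the cardiac intercalated disc and the linkers that tie it to the myofibril: Cdh2, Ctnna1, Ctnna3, Ctnnb1, Ctnnd1, Vcl, Tln2, Nrap, Xirp1 and Xirp2. They were chosen by gene symbol for their known roles, at a time when earlier results of these data were known. All 10 were found among the 26264 genes measured in each library. Poly(A) RNA of mouse right ventricles was sequenced in 7 libraries of Dsg2 F536C knock-in mice and 6 libraries of wild-type mice. The knock-in changes 1 residue of desmoglein 2, a desmosomal cadherin, and the study used it as a model of arrhythmogenic cardiomyopathy. The labels give neither zygosity, strain, age nor sex. They do not state how many animals the libraries stand for, so the tests rest on the spread among libraries, part of which may be technical.

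The intercalated disc joins cardiomyocytes end to end and combines adherens junctions, desmosomes and gap junctions. In the adherens junction, N-cadherin binds N-cadherin on the next cell. Its cytoplasmic tail holds beta-catenin and p120-catenin, and alpha-catenins link beta-catenin to vinculin and actin. Nebulin-related anchoring protein and the Xin repeat proteins bind actin between the junction and the last sarcomere.

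Libraries held 14498336 to 29848597 estimated reads. Knock-in 4, 5 and 6 differed from all the others in an epithelial signal: the summed level of 10 epithelial markers was 3001 to 3993 CPM (estimated reads of a gene scaled to a common library size), against 14.2 to 36.2 CPM in knock-in 1, 2, 3 and 7 and 10.6 to 35.4 CPM in wild type. Their tables also held more fractional read estimates, 10.2% to 10.7%, against 3.25% to 3.79% in the other knock-in tables and 3.07% to 3.52% in wild type. Each result is therefore given with all 13 libraries and with the 10 libraries that remain without knock-in 4, 5 and 6. All 10 cardiomyocyte markers passed the filter on low counts, and the summed level of these markers was 22091 to 25043 CPM in knock-in 4, 5 and 6, 29559 to 45217 CPM in knock-in 1, 2, 3 and 7, and 54149 to 80873 CPM in wild type. In bulk tissue, fewer cardiomyocytes and less RNA of these genes per cardiomyocyte cannot be told apart. Dsg2 itself had 33.4, 47.7 and 61.8 CPM (lowest, median and highest) in knock-in libraries, against 84.1, 98.2 and 116 CPM in wild type, with no overlap between the groups. Its log2 fold change was -1.08 ± 0.14 (SE; adjusted p = 6.96e-05), and -0.97 ± 0.11 (adjusted p = 3.17e-05) with 10 libraries.

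Promoter windows are shown for 3 linkers whose RNA differed in behaviour: Xirp2, which rose, and Vcl and Nrap, which did not pass the test. Each runs from 250 bases before to 50 bases after a RefSeq transcription start, 5′ to 3′, and comes from RefSeq on GRCm38.p6, a different build from the one used for the reads. Capitals mark matches to motifs of muscle gene promoters.

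Xirp2, chr2:67445752-67446051, plus strand: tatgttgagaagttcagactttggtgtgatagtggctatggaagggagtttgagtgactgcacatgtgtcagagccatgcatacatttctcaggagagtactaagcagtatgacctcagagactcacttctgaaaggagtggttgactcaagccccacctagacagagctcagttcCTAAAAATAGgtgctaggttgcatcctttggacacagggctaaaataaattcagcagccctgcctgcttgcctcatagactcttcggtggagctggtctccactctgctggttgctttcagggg

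Vcl, chr14:20929148-20929447, plus strand: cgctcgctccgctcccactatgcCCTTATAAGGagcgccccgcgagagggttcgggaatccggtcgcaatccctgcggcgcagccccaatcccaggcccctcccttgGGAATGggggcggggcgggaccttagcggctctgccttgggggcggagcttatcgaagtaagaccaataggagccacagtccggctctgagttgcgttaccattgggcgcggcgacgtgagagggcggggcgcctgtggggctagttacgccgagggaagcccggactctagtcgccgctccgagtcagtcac

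Nrap, chr19:56389989-56390288, minus strand: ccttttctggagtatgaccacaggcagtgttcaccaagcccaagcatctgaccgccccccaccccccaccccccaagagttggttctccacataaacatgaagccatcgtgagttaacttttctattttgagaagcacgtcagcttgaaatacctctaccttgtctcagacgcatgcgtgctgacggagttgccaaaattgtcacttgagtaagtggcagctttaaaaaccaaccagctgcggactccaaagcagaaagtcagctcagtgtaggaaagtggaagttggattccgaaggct

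In the Xirp2 window the capitals mark a MEF2 match that begins 74 bases before the start, a motif found in 3.19% of all 32851 promoter windows. In the Vcl window the first capitals mark a CArG box, the motif of serum response factor, which 1.63% of windows hold. The second capitals in Vcl are the M-CAT motif of TEAD factors, CATTCC, read on the opposite strand, and 14.7% of windows hold it on either strand. The Nrap window holds none of these, nor the TCF/LEF motif CTTTGAT, present in 3.73% of windows. Both strands were searched, and no 2 matches in these windows overlap. Windows on chromosome 18, where Cdh2 and Ctnna1 lie, were left out of the search among the members. The 10 windows searched belonged to 6 of the 10 genes, the others being Ctnnb1, Ctnnd1 and Ctnna3. The only further match in them was an M-CAT motif in 1 of the 3 Ctnna3 windows. These are letter matches, not measured binding sites.

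The 10 genes moved in both directions. On the TMM scale with 13 libraries, Ctnnd1 and Xirp2 rose and Cdh2, Ctnna1, Ctnna3 and Tln2 fell (edgeR quasi-likelihood test, Benjamini-Hochberg adjusted p under 0.05 over 14588 genes). With 10 libraries, Ctnnd1 and Xirp2 rose and Cdh2, Ctnna1 and Ctnna3 fell. The 2 rises and 4 falls among 10 genes stand beside a background in which 23.6% of all tested genes rose and 21.0% fell; with 10 libraries, 22.3% rose and 21.3% fell. The median log2 fold change of the 10 genes was -0.04 with 13 libraries, beside 0.08 over all tested genes, and 0.00 with 10 libraries, beside 0.02. On the TMM scale Xirp2 was the only one of them whose knock-in libraries all lay above wild type. Ctnna1 was the only one whose knock-in libraries all lay below. Groups failed to overlap in the higher direction for 8.60% of all tested genes and in the lower direction for 10.5%; with 10 libraries the shares were 14.8% and 15.0%. In TPM, the length-corrected level, Ctnnb1 also lay above wild type throughout (229 to 318 against 160 to 217). The Ctnna1 groups overlapped there (182 to 236 against 156 to 216). The shares without overlap given above are for the TMM scale, and none was computed for TPM. With limma on log2(TPM + 1), 52.5% of all tested genes passed as higher with 13 libraries, so the Ctnnb1 separation in TPM has no background to be read against.

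**Figure D1:**
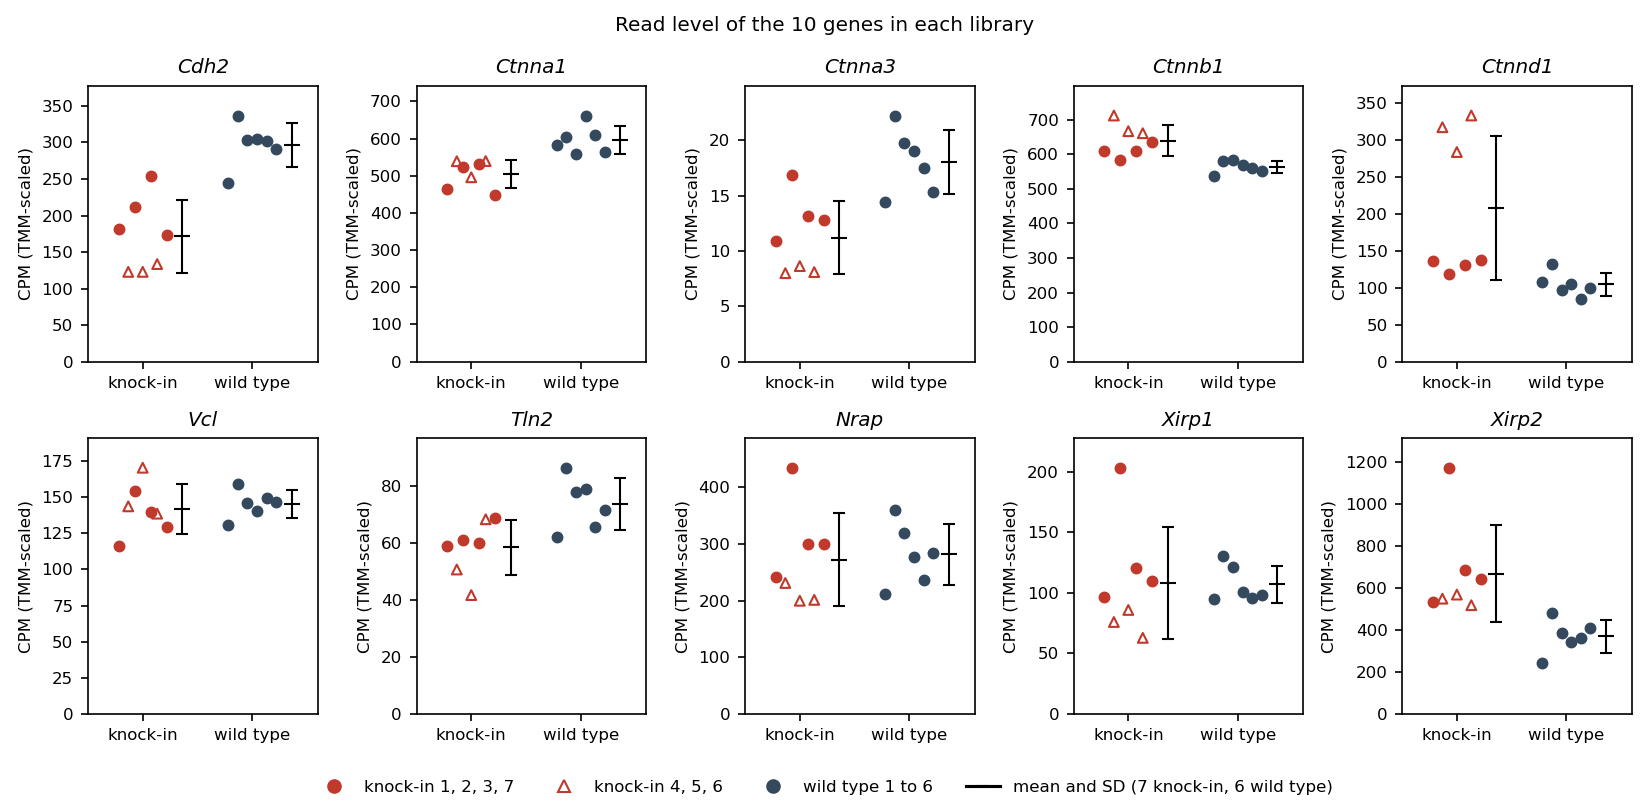
TMM-scaled CPM of each of the 10 genes in every library (one panel per gene; points are libraries, bars are group means ± SD), with knock-in to the left of wild type and knock-in 4, 5 and 6 as open triangles. Xirp2 is above all wild-type libraries in each of 7 knock-in libraries, Ctnna1 is below them in each, and Ctnnd1 reaches 283 to 332 CPM in knock-in 4, 5 and 6 alone.

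Cdh2 encodes N-cadherin, the transmembrane cadherin of the cardiac adherens junction. It had 123, 174 and 255 CPM (lowest, median and highest) in 7 knock-in libraries, against 245, 302 and 337 CPM in 6 wild-type libraries. The only overlap was knock-in 3, which lay above the lowest wild-type library; the 3 lowest values were those of knock-in 4, 5 and 6. Its log2 fold change was -0.79 ± 0.17 (adjusted p = 0.00215). With 10 libraries, knock-in 1, 2, 3 and 7 had 181, 212, 255 and 174 CPM, and the log2 fold change was -0.53 ± 0.12 (adjusted p = 0.00330). The fall passed the test in every fit that left out 1 library, and under library totals. On log2(TPM + 1) it passed with 13 libraries (-0.39, limma, adjusted p = 0.0424) and not with 10 (-0.16, adjusted p = 0.304). It was smaller than that of the cardiomyocyte markers, whose median log2 fold change was -1.02 with 13 libraries and -0.76 with 10. When libraries were scaled by those markers instead, the Cdh2 value turned to 0.16 (adjusted p = 0.0875) and 0.19 (adjusted p = 0.129).

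The catenins did not move as a block. Ctnna1, the widely expressed alphaE-catenin, was the most abundant alpha-catenin, with 447, 523 and 540 CPM in knock-in libraries and 557, 593 and 662 CPM in wild type. The groups did not overlap, yet they lay close together, and the change in log2 units was -0.24 ± 0.09 (adjusted p = 0.0400). With 10 libraries it was -0.28 ± 0.10 (adjusted p = 0.0344). The call was lost in 9 of 13 fits that each left out 1 library (any wild-type library, or knock-in 1, 5 or 7), where the adjusted p ran over all 13 fits between 0.0394 and 0.160. With 10 libraries it was lost without wild type 4, wild type 5, knock-in 1 or knock-in 7. With the Xist level as a covariate the call held with 10 libraries (edgeR, adjusted p = 0.0426) but not with 13 (adjusted p = 0.0502). It was lost on other scales and with no filter on low counts (adjusted p = 0.0880 with 13 libraries and 0.0530 with 10): under library totals the value was -0.00040 (adjusted p = 0.998) with 13 libraries and -0.038 (adjusted p = 0.764) with 10, and on log2(TPM + 1) it was 0.20 (limma, adjusted p = 0.110) and 0.11 (adjusted p = 0.400).

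Ctnna3, alphaT-catenin, is an alpha-catenin enriched in heart and testis that also binds plakophilin 2. It had 7.99, 10.9 and 16.9 CPM in knock-in libraries, against 14.5, 18.2 and 22.2 CPM in wild type. Of the 7 knock-in libraries, 6 lay below the lowest wild-type library, and knock-in 2 lay within the wild-type range. The log2 fold change was -0.69 ± 0.18 (adjusted p = 0.00829), and -0.43 ± 0.14 (adjusted p = 0.0254) with 10 libraries. The fall was thus larger with knock-in 4, 5 and 6, and the 10-library call was lost without wild type 3 or knock-in 1, 3 or 7, with adjusted p between 0.00609 and 0.0929 over the 10 fits. Under library totals the 13-library value was -0.45 and the 10-library value -0.19, and neither passed (adjusted p = 0.0534 and 0.293). On log2(TPM + 1) they were -0.26 and -0.09, and neither passed (limma, adjusted p = 0.144 and 0.605). Under cardiomyocyte marker scaling the values turned to 0.28 and 0.32, and again neither passed (edgeR, adjusted p = 0.0743 and 0.0926).

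Ctnnb1, beta-catenin, links cadherins to alpha-catenin and is also the effector of canonical Wnt signalling. It had 582, 637 and 712 CPM in knock-in libraries, against 538, 565 and 583 CPM in wild type. Knock-in 2 lay within the wild-type range and the other 6 knock-in libraries lay above it. The log2 fold change of 0.18 ± 0.08 missed the threshold (adjusted p = 0.0885), as did 0.11 ± 0.09 with 10 libraries (adjusted p = 0.321). DESeq2 called the 13-library difference (0.19, adjusted p = 0.0175) but not the 10-library one (0.10, adjusted p = 0.0705).

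Ctnnd1, p120-catenin, binds the membrane-proximal part of classical cadherins and holds them at the cell surface. It rose by 0.99 ± 0.27 on the log2 scale with 13 libraries (adjusted p = 0.00926) and by 0.32 ± 0.11 with 10 (adjusted p = 0.0259). Knock-in 4, 5 and 6 had 317, 283 and 332 CPM. Knock-in 1, 2, 3 and 7 had 135, 119, 130 and 137 CPM, and wild type had 85.2, 102 and 132 CPM. Knock-in 4, 5 and 6 were far above every other library, and knock-in 1, 2, 3 and 7 overlapped wild type only through its highest library, wild type 2. The epithelial markers were high in the same 3 libraries, and their part in the Ctnnd1 difference was not tested. Without those libraries the epithelial sums overlapped between groups. Of 5 epithelial markers tested there, the quasi-likelihood test called 0 and DESeq2 called 1. The 10-library call was lost without wild type 3, 5 or 6, or knock-in 1 or 7 (adjusted p between 0.00220 and 0.0746 over the 10 fits). It was also lost with the replicate number as a block in the edgeR fit (0.20, adjusted p = 0.331), and at a threshold of 0.01.

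Vinculin and talin connect the junction and the costamere to actin under tension. Vcl had 116, 140 and 170 CPM in knock-in libraries and 131, 146 and 159 CPM in wild type. The wild-type range lay inside the knock-in range. Its log2 fold change was -0.04 ± 0.10 (95% interval -0.23 to 0.15; adjusted p = 0.774), or -0.11 ± 0.09 with 10 libraries (adjusted p = 0.367). An exon of Ap3m1 overlaps Vcl on the other strand, and Ap3m1 had 47.3 to 110.7 CPM. The strand setting used for counting is not given here, so reads of both genes may not be fully separated. Tln2, a talin paralogue found in striated muscle, had 41.6, 59.8 and 68.7 CPM in knock-in libraries, against 62.0, 74.7 and 86.3 CPM in wild type. Of the 7 knock-in libraries, 5 lay below every wild-type library. The log2 fold change of -0.34 ± 0.12 passed narrowly (adjusted p = 0.0397), and -0.25 ± 0.10 with 10 libraries missed the threshold (adjusted p = 0.0576). DESeq2 called the 10-library fall (-0.26, adjusted p = 0.0327). So did edgeR with DESeq2 size factors (adjusted p = 0.0454) and with effective length offsets (adjusted p = 0.0469). Leaving out wild type 2, 3, 4, 5 or 6, or knock-in 1, 4 or 5, ended the 13-library call, as did library totals (-0.094, adjusted p = 0.560) and log2(TPM + 1) (0.073, limma, adjusted p = 0.643). Tln1, the ubiquitous talin, rose by 0.78 ± 0.19 (adjusted p = 0.00488), and by 0.41 ± 0.11 with 10 libraries (adjusted p = 0.00829).

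The Xin repeat proteins bind and protect actin filaments at the intercalated disc, and Nrap joins terminal actin filaments to the membrane complex. Xirp2 had 518, 568.3 and 1173 CPM in 7 knock-in libraries, against 240, 373 and 481 CPM in wild type. Every knock-in library exceeded every wild-type library, and knock-in 2 stood far above the rest. The log2 fold change was 0.85 ± 0.21 (adjusted p = 0.00470) and 1.04 ± 0.21 with 10 libraries (adjusted p = 0.00166). Without knock-in 2 the values were 0.66 and 0.74, and no fit that left out 1 library lost either call. With 10 libraries Xirp2 had the largest fold of the 10 genes.

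Its paralogue Xirp1 did not pass the same test. Xirp1 had 62.7, 96.7 and 203 CPM in knock-in libraries and 94.9, 99.6 and 130 CPM in wild type, so the wild-type range lay inside the knock-in range. The log2 fold change was 0.01 ± 0.22 (adjusted p = 0.968), and 0.31 ± 0.18 with 10 libraries (adjusted p = 0.178). With the Xist level as a covariate the 10-library value was 0.41 and passed (edgeR, adjusted p = 0.0213), while the 13-library value of 0.03 did not (adjusted p = 0.918). Nrap likewise had 199.7, 242 and 435 CPM in knock-in libraries, against 211, 281 and 359 CPM in wild type. Its log2 fold change was -0.05 ± 0.19 (adjusted p = 0.851), and 0.18 ± 0.17 with 10 libraries (adjusted p = 0.407). For both genes knock-in 2 was the highest library: without it, Xirp1 stood at -0.22 and 0.02, and Nrap at -0.20 and -0.01, with 13 and 10 libraries. The 95% intervals with 10 libraries ran from -0.04 to 0.67 for Xirp1 and from -0.15 to 0.51 for Nrap, wide enough to hold changes as large as the Ctnnd1 value of the same fit.

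**Figure D2:**
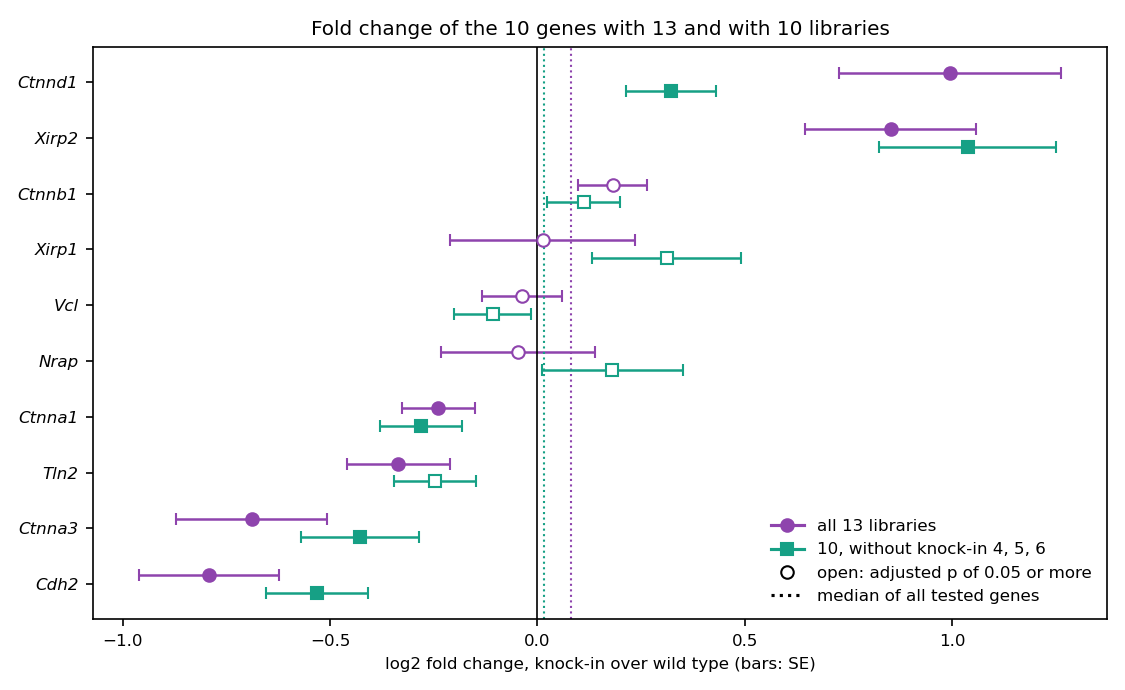
Log2 fold change, knock-in over wild type, of the 10 genes (bars are ± SE), for 13 libraries and for the 10 libraries without knock-in 4, 5 and 6; open symbols have an adjusted p of 0.05 or more, and dotted lines are the medians of all tested genes. Xirp2 and Ctnnd1 lie to the right of 0 and Cdh2, Ctnna1 and Ctnna3 to the left in both sets; the Ctnnd1 value is 0.99 with 13 libraries and 0.32 with 10.

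The scale on which libraries are compared bears on all 10 genes. TMM left the median log2 fold change of all genes at 0.08 with 13 libraries and 0.02 with 10. Scaling by library totals moved it to 0.32 and 0.26. On that scale 41.5% of genes rose and 11.5% fell with 13 libraries (10 libraries: 41.6% and 10.5%), and among the 10 genes Ctnnb1, Ctnnd1 and Xirp2 rose and Cdh2 fell. With 10 libraries on that scale Ctnnb1, Ctnnd1, Nrap, Xirp1 and Xirp2 rose and Cdh2 fell. On log2(TPM + 1), TPM being the length-corrected level, the medians were 0.38 and 0.32. There 52.5% of genes rose and 7.45% fell with 13 libraries (10 libraries: 53.3% and 6.36%; on log2(TPM + 0.1), 53.7% and 7.53%, and 53.1% and 6.43%). Beside that, Ctnnb1, Ctnnd1, Vcl and Xirp2 rose and Cdh2 fell with 13 libraries, and Ctnnb1, Ctnnd1, Vcl, Nrap, Xirp1 and Xirp2 rose with 10. Set against the median of all genes of the same fit, over all scalings except that by cardiomyocyte markers, Cdh2 lay between -0.99 and -0.78, Ctnna3 between -0.89 and -0.65 and Ctnna1 between -0.43 and -0.19 with 13 libraries. Xirp2 lay between 0.65 and 0.88 and Ctnnd1 between 0.82 and 0.93. With 10 libraries the ranges were -0.57 to -0.45 for Cdh2, -0.52 to -0.37 for Ctnna3, -0.32 to -0.20 for Ctnna1, 1.00 to 1.16 for Xirp2 and 0.20 to 0.37 for Ctnnd1. Tln2 also stayed below the median, by -0.53 to -0.31 and -0.32 to -0.19. Subtracting the median takes out any shift that a scaling gives to all genes alike, so these ranges do not test the choice of scale. Relative to 0, the sign of the small values of Ctnna1, Vcl, Tln2 and Nrap turned under one scaling or another. The larger falls of Cdh2 and Ctnna3 also changed sign, under cardiomyocyte marker scaling. Their values there were 0.16 and 0.28 with 13 libraries, and 0.19 and 0.32 with 10. Scaling by the 10 cardiomyocyte markers raised the median of all genes to 1.11 and 0.76, and on that scale 8 of the 10 genes passed the test as higher in either library set, the other 2 being Cdh2 and Ctnna3. That count is near the background of that scale, on which 86.1% of all tested genes passed as higher and 1.44% as lower in the full set; the 10-library shares were 77.1% and 1.72%.

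**Figure D3:**
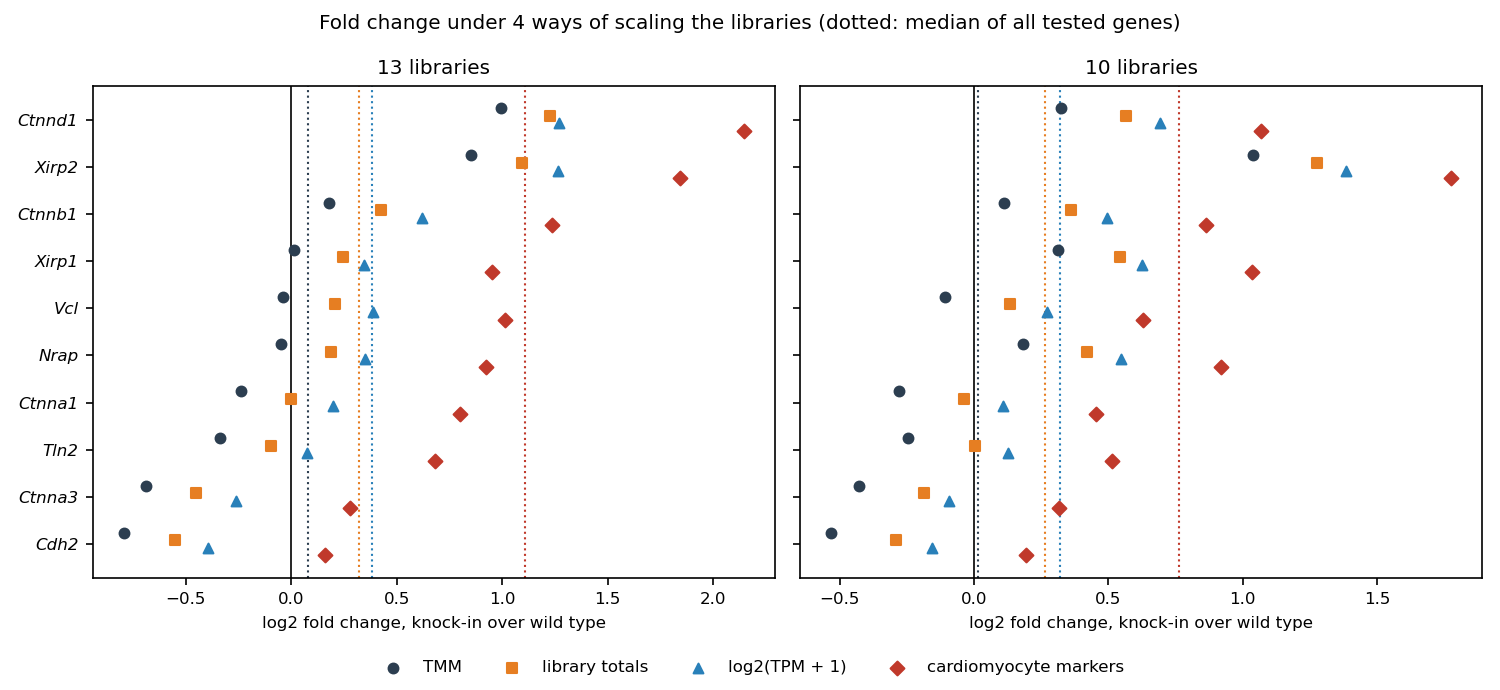
Log2 fold change of each of the 10 genes, knock-in over wild type, under TMM, library totals, cardiomyocyte markers and log2(TPM + 1), with dotted lines for the median of all genes under the same scaling, for 13 and for 10 libraries. Cdh2 and Ctnna3 lie below the median and Xirp2 above it under TMM, library totals and log2(TPM + 1).

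Ratios of 2 genes inside a library do not depend on scaling, and 6 were compared. The Xirp1 to Xirp2 ratio, in TPM, was 0.242 to 0.375 (median 0.334) in knock-in libraries, against 0.513 to 0.851 (median 0.592) in wild type. No library of one group reached the other group, and the log2 difference of means was -0.93 (exact permutation p = 0.000583, the smallest possible; adjusted p = 0.00350). With 10 libraries it was -0.76 (exact permutation p = 0.00476, again the smallest possible; adjusted p = 0.00714). Xirp2 RNA therefore outweighed Xirp1 RNA in every library, and more so in every knock-in library.

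The Tln2 to Tln1 ratio was 0.114 to 0.281 in knock-in libraries and 0.357 to 0.442 in wild type, a log2 difference of -1.06 (exact permutation, adjusted p = 0.00350) or -0.64 with 10 libraries (adjusted p = 0.00714). Tln1 RNA thus exceeded Tln2 RNA in every library of this bulk tissue, wild type included. With group medians in place of means the 13-library call was lost (-0.88, exact permutation, adjusted p = 0.0793). The groups did not overlap, and knock-in 4, 5 and 6 had the lowest ratios, 0.114, 0.133 and 0.147. The edgeR fit on the TMM scale did not call Tln2 alone with 10 libraries, though DESeq2 did. The ratio, which holds the Tln1 rise as well, passed its test. The Ctnnb1 to Cdh2 ratio was 3.16 to 7.74 in knock-in libraries, against 2.26 to 2.92 in wild type, a log2 difference of 1.02 (exact permutation, adjusted p = 0.00350) or 0.65 with 10 libraries (adjusted p = 0.00714). With medians the 13-library call was likewise lost (0.94, exact permutation, adjusted p = 0.0793). Here too no library of one group lay in the range of the other. Beta-catenin RNA was thus in larger excess over N-cadherin RNA in each knock-in library.

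The Cdh2 to Dsg2 ratio sets the classical cadherin against the desmosomal cadherin. It was 2.95 to 5.19 (median 4.74) in knock-in libraries and 3.29 to 3.88 (median 3.79) in wild type. The log2 difference of 0.26 missed the threshold with 13 libraries (exact permutation, adjusted p = 0.0748). With 10 libraries it was 0.43 (adjusted p = 0.00714), where the knock-in ratios of 4.74 to 5.19 all lay above wild type. Knock-in 6, with the ratio of 2.95, decided this: without it the 13-library difference was 0.36 (exact permutation, adjusted p = 0.00325). The Ctnna3 to Ctnna1 ratio was 0.0155 to 0.0338 in knock-in libraries, against 0.0256 to 0.0391 in wild type, a log2 difference of -0.51 (exact permutation, adjusted p = 0.0376). With 10 libraries it was -0.22 (adjusted p = 0.181), and 10 of the 13 tests that left out 1 library with the full set also lost the call. The Ctnnb1 to Jup ratio, beta-catenin over the plakoglobin of desmosomes, differed by -0.03 with 13 libraries (exact permutation, adjusted p = 0.896). With 10 libraries it was 5.35 to 6.29 in knock-in and 4.02 to 5.15 in wild type, a log2 difference of 0.30 (adjusted p = 0.0114). In knock-in 4, 5 and 6 it was 2.72, 3.20 and 4.41.

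**Figure D4:**
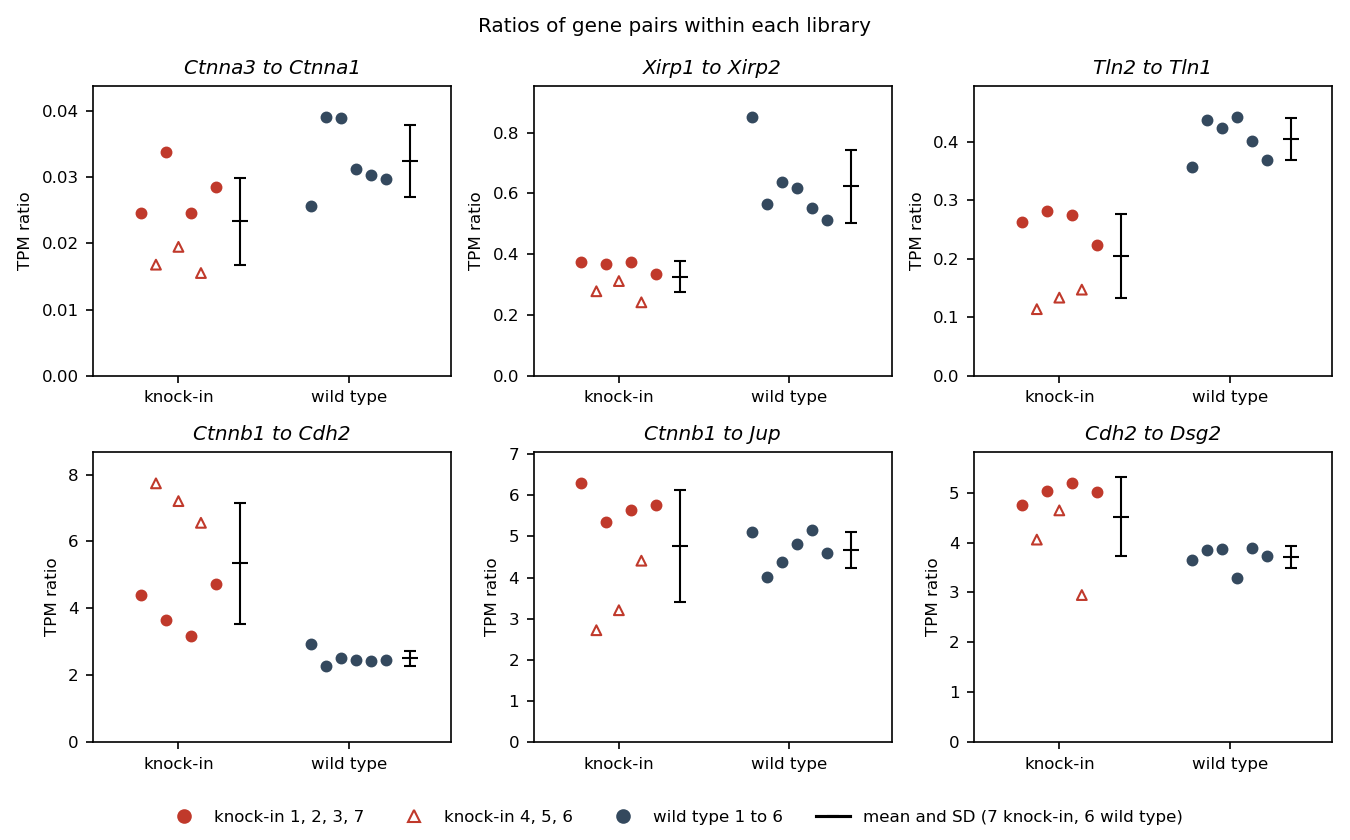
Within-library TPM ratios of 6 gene pairs on linear axes (points are libraries, knock-in left of wild type, knock-in 4, 5 and 6 as open triangles; bars are the mean and SD of the ratio in 7 knock-in and 6 wild-type libraries). Xirp1 to Xirp2, Tln2 to Tln1 and Ctnnb1 to Cdh2 separate the groups without overlap.

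Per transcript length, Ctnna1 and Ctnnb1 were the 2 most abundant of these RNAs in both groups. In knock-in libraries the means were 276 ± 34.2 TPM for Ctnnb1 and 206 ± 18.6 TPM for Ctnna1 (SD, n = 7), against 179 ± 21.2 TPM and 181 ± 25.2 TPM in wild type (n = 6). In wild type the next levels were Cdh2 (72.1 ± 12.6 TPM), Nrap (57.4 ± 15.4 TPM) and Xirp2 (32.7 ± 9.36 TPM), while in knock-in libraries Xirp2 (79.8 ± 22.6 TPM), Nrap (73.3 ± 19.0 TPM), Ctnnd1 (59.9 ± 30.7 TPM) and Cdh2 (55.3 ± 13.5 TPM) followed. Both groups ended with Vcl, Xirp1, Tln2 and Ctnna3 except that Ctnnd1 stood between Vcl and Xirp1 in wild type. Tln2 was at 6.86 ± 1.19 TPM in knock-in and 6.49 ± 1.35 TPM in wild type, and Ctnna3 at 4.73 ± 1.08 TPM in knock-in and 5.89 ± 1.45 TPM in wild type. Most neighbours in these orders overlapped in range. The steps without overlap were Ctnna1 to Xirp2 and Xirp1 to Tln2 in knock-in libraries, and Ctnnb1 to Cdh2 and Xirp1 to Tln2 in wild type. The 10 genes summed to 825 to 894 TPM in knock-in 4, 5 and 6, to 717 to 858 TPM in the other knock-in libraries and to 534 to 782 TPM in wild type.

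**Figure D5:**
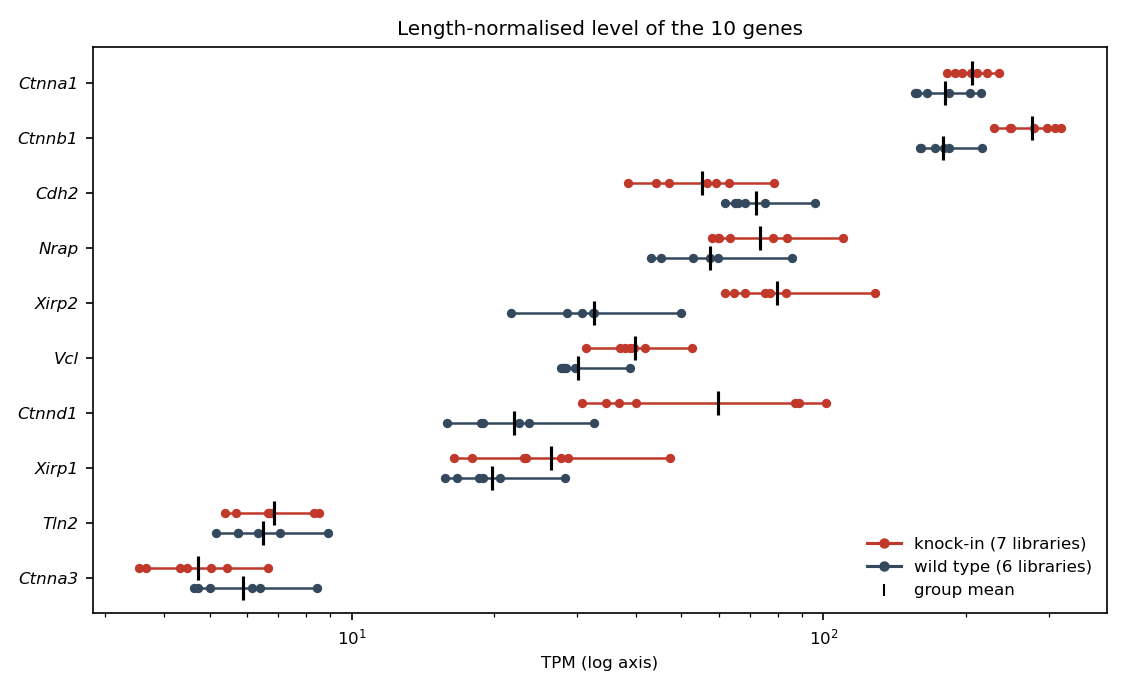
TPM of the 10 genes on a log axis, ordered by their wild-type mean (points are libraries, lines span their range and ticks are group means), knock-in above wild type. Ctnnb1 lies between 229 and 318 TPM in knock-in libraries and between 160 and 217 TPM in wild type, Ctnna1 between 156 and 236 TPM over all libraries, and Tln2 and Ctnna3 between 3.54 and 8.91 TPM.

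Spread between libraries also differed among the genes. In knock-in libraries the coefficient of variation of CPM was lowest for Ctnnb1 (6.89%) and Ctnna1 (7.45%) and highest for Ctnnd1 (47.1%) and Xirp1 (43.1%), against 3.13%, 6.44%, 15.0% and 14.1% for those 4 genes in wild type. Without knock-in 4, 5 and 6 the Ctnnd1 value was 6.48%, while Xirp1 (36.3%) and Xirp2 (37.5%) stayed variable, with knock-in 2 the highest library of both. By profile across the 13 libraries, measured as the root mean square difference of log2 CPM centred on each gene's mean, Cdh2 was most like Ank2 (0.07) and Fhod3 (0.08), and Ctnna3 most like Prob1 (0.10) and Myo18b (0.12). Ctnnd1 was most like Rangap1 (0.09) and Ppp4c (0.11). Xirp2 was most like Abra (0.20) and Ephx3 (0.23), the largest of these distances in the set, and deviated from its own mean by 0.54. Nearest within the set were Nrap and Xirp1 (0.16), Ctnna1 and Vcl (0.17), Ctnnb1 and Vcl (0.17) and Cdh2 and Ctnna3 (0.17). Ctnna1, Vcl and Ctnnb1 deviated from their own means by only 0.15, 0.14 and 0.12. The pairs with Vcl therefore show low spread rather than a shared profile. Cdh2 and Ctnna3 deviated by 0.51 and 0.48, and Nrap and Xirp1 by 0.32 and 0.39. Ctnnd1 was no closer than 0.54 to any other of the 10 genes, and Xirp2 no closer than 0.47.

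Other genes of the same structures give the setting. Among all tested genes, 23.6% rose and 21.0% fell in the full set, and 22.3% and 21.3% with 10 libraries. The median over all tested genes was 0.08 and 0.02. None of the list counts here and in the next paragraph was tested against these shares. Of 29 tested genes of the cadherin-catenin and nectin-afadin junctions outside the set, 8 rose and 3 fell in the full set; the 10-library fit called 6 higher and 4 lower. Their median log2 fold change was 0.22 and 0.07. Actn1, an actin crosslinker, rose by 2.44 with 13 libraries and by 1.16 with 10, Actn4 by 1.39 and 0.63, and the junction receptor Nectin1 by 1.35 and 0.64; these 3 values were larger with knock-in 4, 5 and 6 by over 1.5 times. Lmo7, which binds afadin and alpha-actinin, fell by 0.78 and 0.56. Of 20 genes of talin, integrins and the costamere, 9 rose and 4 fell in the full set, and the 10-library fit called 7 higher and 3 lower (median 0.31 and 0.15). The fibronectin receptor Itga5 rose by 0.92 and 0.69 and the focal adhesion protein Zyx by 0.86 and 0.56. The laminin receptor Itga7 fell by 0.93 and 0.71, and Itgb1bp2, the muscle integrin-binding protein melusin, by 1.47 and 1.17.

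Of 19 Z-disc and myofibril partners, 3 rose and 10 fell in the full set, and the 10-library fit called 3 higher and 6 lower (median -0.44 and -0.22). The Z-disc nebulin relative Nebl fell by 1.14 and 0.91, Fhl2 by 1.33 and 1.03 and Klhl41 by 0.75 and 0.54, while skeletal actin, Acta1, rose by 4.51 and 4.05. Of 5 desmosomal genes, 3 fell in each library set and the other 2, Dsp and Jup, did not pass the test (median -0.55 and -0.38). Besides Dsg2, these were Dsc2, which fell by 0.99 and 0.96, and Pkp2, which fell by 0.55 and 0.38. The Pkp2 call with 10 libraries was lost in 2 fits that left out 1 library. Among 16 transcriptional targets and feedback genes of beta-catenin, 4 of 11 tested rose and 1 fell in the full set, and the 10-library fit called 6 of 12 higher and 1 lower (median 0.36 and 0.37). Of the tested genes, 6 did not pass in the full set and 5 did not with 10 libraries. The 4 called genes with the smallest p are named here. Nkd2 rose by 2.00 and 2.29, Ccnd1 by 0.63 and 0.58 and Myc by 3.45 and 1.36, and Tnfrsf19 fell by 1.72 and 1.55. The Myc value was much larger with knock-in 4, 5 and 6. These targets respond to other pathways as well, and beta-catenin activity was not measured.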

How the data were processed

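Right ventricular poly(A) RNA was made into stranded libraries, per the labels' protocols. DRAGEN and GRCm39 are named in the submitters' processing notes. A version, an annotation and the strand setting used for counting are not named there or in the labels. The authors deposited 1 table per library of estimated counts (fractional values occur) and TPM per gene, per the file headers. Groups and replicate numbers come from the titles in the labels.

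Estimated counts were rounded, filtered with filterByExpr, scaled by TMM and tested on all genes with edgeR's quasi-likelihood test (edgeR 4.0.16, R 4.3.3, robust, no covariate). Each SE was derived from the fold change and its F statistic. CPM are TMM-scaled. Log2 CPM used a prior count of 2. Ratios were tested on log2 TPM ratios by two-sided exact permutation of group labels, adjusted over 6 ratios. Calls have an adjusted p under 0.05. The edgeR fit was run on simulated counts in which only a small set of genes changed, and the ratio tests were not simulated. Alternatives were library totals, cardiomyocyte marker scaling, no filter, DESeq2 1.42.0, limma 3.58.1 on log2(TPM + 1) and log2(TPM + 0.1), DESeq2 size factors, effective length offsets, a replicate block, an Xist covariate, an adjusted p under 0.01 and leaving out each library.

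Members, lists and tests were chosen with earlier results of these data known. Named genes are the 10 members, Dsg2, the ratio denominators, up to 4 called genes with the smallest p per list, and the 2 genes nearest in profile to each member. Depth was 14498336 to 29848597 reads per library.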

Additional observations from a re-analysis of the deposited data

Results flagged for a closer look

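Of 48 groups of values screened for a single library far from the rest of its group, 4 were picked out, and chance alone picks out about 1 in 20. In 3 of them the library was knock-in 2. Xirp2 stood at 1170 CPM there, where the other knock-in values were 518 to 683 CPM. Xirp1 stood at 203 CPM, against 62.7 to 121 CPM in the others, and Nrap at 435 CPM, against 199.7 to 300 CPM. All 3 encode actin-binding proteins at the end of the myofibril. The same library gave an Xirp1 to Xirp2 ratio of 0.368, inside the range of the other knock-in libraries. The fourth value was the Xirp1 to Xirp2 ratio of wild type 1, 0.851, against 0.513 to 0.637 in the other wild-type libraries.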

How the results depend on the processing

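Cdh2, Ctnna3, Ctnnd1 and Xirp2 kept their 13-library calls whichever 1 library was left out, and so did Cdh2 and Xirp2 with 10 libraries; leaving libraries out gave 2 to 2 members higher and 2 to 4 lower with 13 libraries, and 1 to 2 higher and 1 to 4 lower with 10. Shares of all genes called are given in the report for the marker, library total and TPM scales; with 13 and 10 libraries the other shares were 19.3% and 16.5% higher and 13.6% and 15.4% lower with no filter, 15.6% and 9.54% higher and 17.4% and 9.64% lower under the replicate block, and 11.5% and 14.8% higher and 13.8% and 14.4% lower at an adjusted p under 0.01. Members called higher numbered 8 under cardiomyocyte marker scaling and 4 under log2(TPM + 1) and log2(TPM + 0.1) with 13 libraries; with 10 they numbered 8, 6 and 6, 5 under library totals, 1 under the replicate block and 1 at an adjusted p under 0.01. Members called lower numbered 1 under library totals, 0 under marker scaling, 2 with no filter, 1 and 1 on the 2 TPM scales and 2 at an adjusted p under 0.01 with 13 libraries; with 10 they numbered 1, 0, 0 and 0 on the TPM scales, and 1 at an adjusted p under 0.01. Values that changed sign with 13 libraries were, under marker scaling, Cdh2 0.16, Ctnna1 0.80, Ctnna3 0.28, Vcl 1.01, Tln2 0.68 and Nrap 0.92; under library totals, Vcl 0.21 and Nrap 0.19; on log2(TPM + 1), Ctnna1 0.20, Vcl 0.39, Tln2 0.073 and Nrap 0.35; on log2(TPM + 0.1), Ctnna1 0.20, Vcl 0.40, Tln2 0.084 and Nrap 0.35; without knock-in 4, 5 and 6, Nrap 0.18; and under the block, Xirp1 -0.093. With 10 libraries they were Cdh2 0.19, Ctnna1 0.45, Ctnna3 0.32, Vcl 0.63 and Tln2 0.51 under marker scaling, Vcl 0.14 and Tln2 0.0020 under library totals, Ctnna1 0.11, Vcl 0.27 and Tln2 0.13 on log2(TPM + 1), and Ctnna1 0.11, Vcl 0.28 and Tln2 0.14 on log2(TPM + 0.1). Leaving out 1 library with 13 gave -0.084 to 0.028 for Vcl, -0.20 to 0.063 for Nrap and -0.22 to 0.11 for Xirp1, and with 10 gave -0.015 to 0.29 for Nrap. Ctnna3 to Ctnna1 was -0.48 in read numbers and -0.32 for medians, and -0.61 to -0.42 on leaving out 1 library; both settings ended its 13-library call (exact permutation, adjusted p = 0.0612 in read numbers and 0.144 with medians). With medians Tln2 to Tln1 (-0.88) and Ctnnb1 to Cdh2 (0.94) also lost their 13-library calls (exact permutation, adjusted p = 0.0793 each), and Ctnnb1 to Jup was 0.18. Leaving out 1 library gave -0.10 to 0.10 for Ctnnb1 to Jup and 0.23 to 0.36 for Cdh2 to Dsg2. The cause of these shifts was not tested. Replicate numbers did not pair the samples (correlation of same-numbered deviations -0.113 to 0.0845 over 6 pairs, and 0 knock-in libraries closest to their own number). With the number as a block, 4811 of all genes were called in place of 6502 with 13 libraries, and 2785 in place of 6340 with 10. Over 3 pairs the blocked 10-library ratios, Xirp1 to Xirp2 -0.86, Tln2 to Tln1 -0.57, Ctnnb1 to Cdh2 0.54, Ctnnb1 to Jup 0.36 and Cdh2 to Dsg2 0.40, cannot reach an adjusted p below 0.25.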

Other observations

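Marker lists of other cell types describe the tissue in which the 10 genes were read, and their part in the members' differences was not tested. Beside them, 23.6% of all tested genes rose and 21.0% fell with 13 libraries, and 22.3% and 21.3% with 10 (median 0.08 and 0.02). Of 10 cardiomyocyte markers 9 fell in each library set, by medians of -1.02 with 13 libraries and -0.76 with 10. Of 10 fibroblast markers 4 rose with 13 libraries and 8 with 10 (median 0.49 and 0.82); their sum was 6830 to 12296 CPM in knock-in 4, 5 and 6, 7608 to 10142 CPM in knock-in 1, 2, 3 and 7, and 4768 to 6675 CPM in wild type. Macrophage markers rose in 7 and 10 of 10 cases (median 0.66 and 0.88), with sums of 903 to 1039 CPM in knock-in 4, 5 and 6, 1183 to 2145 CPM in knock-in 1, 2, 3 and 7, and 688 to 1025 CPM in wild type. Of 10 mural markers 4 rose and 2 fell in the full set, and the 10-library fit called 3 higher and 1 lower (median 0.35 in both). Among 10 endothelial markers the quasi-likelihood test called 0 with 13 libraries (1 at an unadjusted p under 0.05, and 1 called by DESeq2) and 3 higher with 10 (median -0.10 and 0.12); their sum was lower in knock-in 4, 5 and 6, 1588 to 1938 CPM, than in knock-in 1, 2, 3 and 7, 2593 to 3630 CPM, and in wild type, 2662 to 3127 CPM. All 5 tested epithelial markers rose with 13 libraries (median 5.39), and with 10 the quasi-likelihood test called 0 (1 at an unadjusted p under 0.05, and 1 by DESeq2; median 0.05). Of 5 tested skeletal muscle markers 1 rose and 2 fell in each set (median 0.51 and -0.32).

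By profile over the 13 libraries, the genes nearest to the members not described in the report were Arl8b and Ilkap for Ctnna1, Calm3 and Hexim1 for Ctnnb1, Nbr1 and Oga for Vcl, Polr1a and Inpp5k for Tln2, Kremen1 and Parvb for Nrap, and Wipf3 and Tmcc3 for Xirp1. The differences ran from 0.0627 for Ctnnb1 and Calm3 to 0.161 for Xirp1 and Tmcc3. Exons of a further gene overlap those of Ctnna1, Ctnnb1, Vcl, Nrap and Xirp2 on the opposite strand; of these genes Lrrtm2 had 0 to 0.266 CPM, Ulk4 0.321 to 1.47 CPM and Habp2 0 to 2.30 CPM.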
